A study of Mus musculus with 9 samples.

Results

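Muc13, Papss2, Ass1, Dock10, Slc45a3, Tgfa, C2cd4a, Slc22a3, Podxl and Arpp21 are 10 of the 24391 gene rows counted in leukaemic mouse bone marrow, and they were named because an earlier analysis of the same counts placed them among the largest increases in CD43++ckit+ cells over CD43+ckit- or CD43-ckit- cells. The cells came from the bone marrow of C57BL/6 mice, 6 to 8 weeks old, with leukaemia of the AML1-ETO9a model, and were sorted by surface CD43 and c-Kit. RNA-seq counts were available for 9 libraries, 3 of each population: CD43++ckit+, CD43+ckit- and CD43-ckit-. Strain, age, tissue and leukaemia model were shared by all 3 populations, and no cells from mice without leukaemia were analysed here. Nothing in the labels ties a library to an animal, so the spread between libraries, and each p-value built on it, may be technical only.

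AML1-ETO9a is a shortened form of the fusion protein made in human leukaemias that carry the t(8;21) translocation. It keeps the DNA-binding domain of AML1, also named RUNX1. CD43, encoded by Spn, is a sialoglycoprotein of the leukocyte surface, and c-Kit, encoded by Kit, is the receptor for stem cell factor on progenitors and mast cells. The 10 genes belong to no single pathway. Muc13 and Podxl encode mucin-like proteins of the cell surface, and Tgfa encodes a ligand of the epidermal growth factor (EGF) receptor. Papss2 and Ass1 encode enzymes of sulfate activation and of arginine synthesis, and Slc22a3 and Slc45a3 encode membrane transporters. Dock10 encodes an activator of small GTPases, Arpp21 an RNA-binding phosphoprotein, and C2cd4a a small protein with a C2 domain.

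Levels are given as CPM, each gene's counts relative to the total of its library, with totals adjusted by the trimmed mean of M-values (TMM). Values listed for a population follow libraries 1, 2 and 3. CPM takes no account of transcript length, so the values of different genes are not compared with each other. The 3 CD43++ckit+ libraries held 28530150 to 31781746 counts, those of CD43+ckit- 27378734 to 28214639 and those of CD43-ckit- 17966197 to 21609537. Kit stood at 146.0 to 175.5 CPM in CD43++ckit+ cells, 7.80 to 21.0 CPM in CD43+ckit- cells and 18.9 to 42.1 CPM in CD43-ckit- cells, and Spn at 431.7 to 555.2, 137.2 to 232.5 and 71.7 to 180.1 CPM in the same order. Library 3 of CD43++ckit+ stood apart from libraries 1 and 2 of that population. The summed level of 14 neutrophil markers was 380.1, 102.7 and 6507 CPM in CD43++ckit+ libraries 1, 2 and 3, against 528.5, 4023 and 3204 CPM in the CD43+ckit- libraries and 4122, 17778 and 18326 CPM in the CD43-ckit- libraries. None of the 14 was at 0 in any library, and none was called higher or lower in any of the 3 comparisons. Other marker lists were also highest in library 3 within CD43++ckit+. In libraries 1, 2 and 3 monocyte and macrophage markers summed to 31.6, 19.5 and 171.3 CPM and B-lineage markers to 7.9, 4.0 and 26.5 CPM. T and NK cell markers summed to 6.9, 5.0 and 26.1 CPM and erythroid markers to 1821, 1838 and 2627 CPM. Megakaryocyte and stroma lists did likewise, and the mast cell, basophil and eosinophil list was lowest there. The log2 fold changes of the 10 genes are therefore also given without that library. The part of these markers in the values of the 10 genes was not tested.

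**Figure D1:**
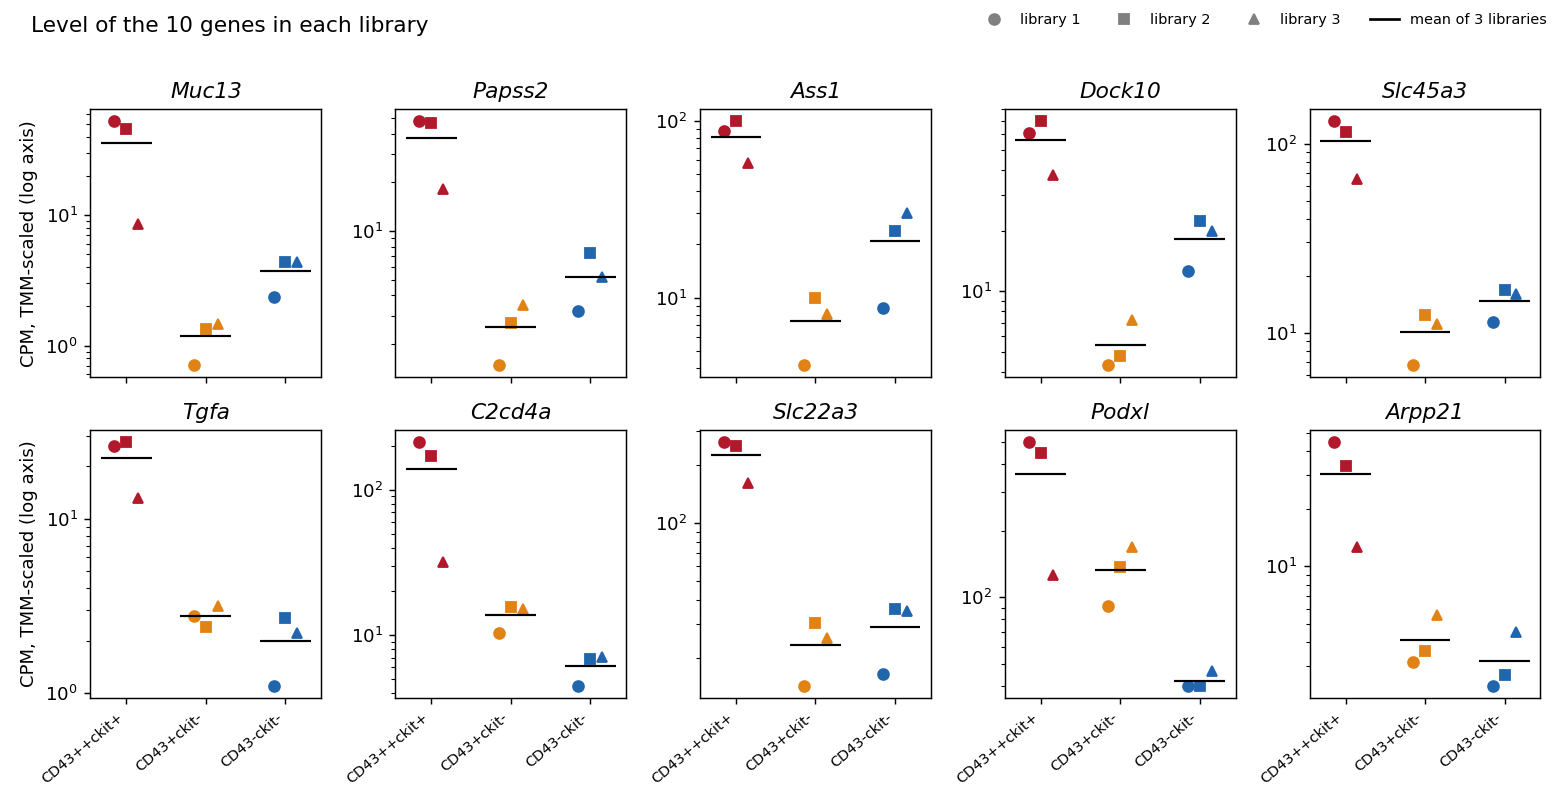
Level of each of the 10 genes in each of the 9 libraries, in TMM-scaled CPM on a log axis; points are libraries and bars are the means of 3 libraries. CD43++ckit+ libraries lie above all others for 9 genes, and for Podxl library 3 of CD43++ckit+ (126.7 CPM) lies below CD43+ckit- libraries 2 and 3 (137.5 and 169.5 CPM).

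The 10 genes were chosen by their log2 fold changes in CD43++ckit+ over each of the other populations, so those differences are described here without a test. The ranking took called genes whose average log2 CPM reached 3 and whose libraries did not overlap. Predicted genes and symbols that begin with a digit were left out of it. Of 1702 such genes higher over CD43+ckit-, the 8 largest log2 fold changes included Muc13, Papss2, Ass1, Dock10 and Slc45a3. The last of these 8 was Slc45a3 (3.36), and the first gene outside was C2cd4a (3.34). Of 3746 such genes higher over CD43-ckit-, the top 8 included C2cd4a, Tgfa, Muc13, Arpp21 and Podxl, with Podxl at 3.09. The last of these 8 was Ms4a2 (3.05), and the first gene outside was Dmd (3.0). Ranked by the smaller of both log2 fold changes, Slc22a3 (2.94) was the last of the top 6 and Arpp21 (2.89) the first outside. Tph1, Ms4a2, Kit and Adgrg7 also stood in these top lists and are not among the 10. All 10 genes passed the filter on low counts, as did 12573 genes in all.

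Every CD43++ckit+ library was above every CD43+ckit- library for 9 of the 10 genes, as it was for 27.0% of the genes tested. Against CD43-ckit- it was so for 10 of 10, beside 42.7% of the genes tested, and against both for 9, beside 22.3%. All 10 were called higher in both comparisons, beside 19.7% and 39.7% of genes, and since these comparisons chose the genes nothing is read from those counts. The median log2 fold change of the 10 was 3.35 over CD43+ckit- (0.01 for all genes tested) and 3.02 over CD43-ckit- (0.19 for all genes). Without library 3 of CD43++ckit+ the medians of the 10 were 3.60 and 3.34. Scaling by library totals in place of TMM moved the median of all genes to 0.28 and 1.11 and that of the 10 to 3.58 and 3.88. In sorted bulk cells a higher level cannot be told apart from a larger share of cells with the transcript.

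Because the fusion protein of this model keeps the DNA-binding domain of RUNX1, and because the 10 genes were high in the same population, the RUNX motif was searched in their promoters. RefSeq promoter sequences of mouse build GRCm38.p6 were matched for 9 of the 10 genes by symbol, and the 250 bases before the most upstream start listed were searched on both strands. The letters TGTGGT or TGCGGT, or their reverse complements ACCACA or ACCGCA, occurred once each in 3 of the 9 promoters (33.3%), those of Papss2, C2cd4a and Arpp21, and in 18.6% of 27018 gene promoters of the same length. Those 3 promoters are shown 5′ to 3′ in the direction of transcription, with the motif in capitals.
Papss2, chr19:32595465-32595714, plus strand: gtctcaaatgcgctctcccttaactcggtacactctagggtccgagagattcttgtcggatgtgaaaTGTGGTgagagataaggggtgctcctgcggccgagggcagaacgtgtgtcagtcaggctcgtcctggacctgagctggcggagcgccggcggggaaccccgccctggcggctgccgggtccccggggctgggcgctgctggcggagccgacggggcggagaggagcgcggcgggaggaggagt
C2cd4a, chr9:67832331-67832580, minus strand: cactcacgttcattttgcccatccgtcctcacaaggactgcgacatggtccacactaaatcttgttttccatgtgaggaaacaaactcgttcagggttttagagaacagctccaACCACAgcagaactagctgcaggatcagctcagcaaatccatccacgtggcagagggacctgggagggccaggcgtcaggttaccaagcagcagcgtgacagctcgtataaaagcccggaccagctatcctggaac
Arpp21, chr9:112233723-112233972, minus strand: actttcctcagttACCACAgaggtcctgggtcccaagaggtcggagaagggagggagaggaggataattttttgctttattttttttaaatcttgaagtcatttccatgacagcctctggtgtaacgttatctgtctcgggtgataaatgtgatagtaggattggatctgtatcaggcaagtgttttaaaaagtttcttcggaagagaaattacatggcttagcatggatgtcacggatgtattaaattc
The motif ended 178 bases before the start in Papss2, 131 bases before it in C2cd4a and 232 bases before it in Arpp21. Bases just after the start used were looked for in GENCODE transcripts of each gene. They were found for C2cd4a and Arpp21 but not for Papss2, nor for Dock10 and Slc45a3, so those starts are uncertain. Arpp21 had 9 promoters listed and Papss2 had 2, and only the most upstream was searched. Motifs of other blood cell factors were searched in the same windows, and a stretch could count for more than 1 motif. The GATA motif, searched as GATAA, was found in 2 of 9 (22.2%) and in 23.0% of all promoters of that length. The ETS motif, whose letters were taken as GGAAG, was found in 5 of 9 (55.6%) and in 63.7% of all. The MYB motif, taken as AACNG, was found in 4 of 9 (44.4%) and in 74.2% of all. A match describes these letters only, and no binding was measured.

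The pathways and families of the 10 genes were represented by 7 lists with 135 genes, the 10 genes themselves left out, of which 91 passed the filter on low counts. In CD43++ckit+ compared with CD43+ckit-, 26 of the 91 rose and 16 fell at an adjusted p under 0.05 (edgeR's quasi-likelihood test with Benjamini-Hochberg adjustment over all 12573 genes). Those were 28.6% and 17.6% of the listed genes, beside 19.7% and 20.1% of all genes. The count of 26 was 16 without library 1 and 17 without library 2 of CD43++ckit+. Compared with CD43-ckit-, 33 rose and 24 fell (36.3% and 26.4%), beside 39.7% and 27.7% of all genes, and 54 rose and 10 fell with library totals. Between CD43+ckit- and CD43-ckit-, 19 were higher and 23 lower in the first (20.9% and 25.3%), beside 31.0% and 20.9% of all genes, and 43 were higher and 10 lower with library totals. The 23 became 35 without library 3 of CD43++ckit+, and the 19 became 12 without library 2 of CD43+ckit-. In a fit of the CD43+ckit- and CD43-ckit- libraries alone the 23 became 32, and 36 with replicate numbers as blocks. These lists were drawn up with earlier results of these data known.

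Muc13 encodes a membrane-spanning mucin best known from the lining of the gut. It stood at 52.5, 45.5 and 8.51 CPM in CD43++ckit+ libraries 1, 2 and 3, against 0.706, 1.34 and 1.47 CPM in the CD43+ckit- libraries and 2.36, 4.39 and 4.38 CPM in the CD43-ckit- libraries. The lowest CD43++ckit+ library held 381 reads of the gene, and CD43+ckit- libraries held 21, 40 and 46. All 3 populations were apart, with CD43+ckit- lowest, but library 3 of CD43++ckit+ was only 1.94 times the highest library of the others. The log2 fold change of CD43++ckit+ was 4.91 ± 0.69 (SE) over CD43+ckit-, a 30.1-fold difference, and 3.25 ± 0.64 over CD43-ckit-, a 9.53-fold difference. Without library 3 of CD43++ckit+ these were 5.37 and 3.73.

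Podxl encodes podocalyxin, a sialomucin of the CD34 family found on podocytes, endothelium and early blood cells. Its level was 502.5, 447.8 and 126.7 CPM in CD43++ckit+ libraries 1, 2 and 3, against 91.2, 137.5 and 169.5 CPM in the CD43+ckit- libraries and 39.9, 39.9 and 46.4 CPM in the CD43-ckit- libraries. CD43++ckit+ and CD43+ckit- overlapped through library 3, and both lay above every CD43-ckit- library. Its log2 fold change was 1.44 ± 0.45 over CD43+ckit- and 3.09 ± 0.48 over CD43-ckit-, and 1.84 and 3.51 without library 3. Among 17 other mucins, sialomucins and their membrane anchors, 9 were tested, of which 4 rose and 2 fell in CD43++ckit+ over CD43+ckit-. Those were 44.4% and 22.2%, beside 19.7% and 20.1% of all genes. Over CD43-ckit-, 1 rose and 3 fell (11.1% and 33.3%), beside 39.7% and 27.7% of all genes. Ezr, which encodes ezrin, a linker of podocalyxin to the actin cytoskeleton, averaged 279.9 ± 19.8 CPM in CD43++ckit+ cells, 677.9 ± 13.4 CPM in CD43+ckit- cells and 1160 ± 247 CPM in CD43-ckit- cells (SD, n = 3 each). Ezr fell in CD43++ckit+ against both (log2 fold changes -1.28 ± 0.16 and -2.05 ± 0.17, edgeR adjusted p = 0.000617 and 1.33e-05). Its relatives moesin and radixin did not follow it: Msn rose over CD43+ckit- (0.90 ± 0.16, edgeR adjusted p = 0.00249) and Rdx rose over CD43-ckit- (1.59 ± 0.29, edgeR adjusted p = 0.00107). Cd164, a sialomucin, rose over CD43+ckit- (0.73 ± 0.19, edgeR adjusted p = 0.0134), a call lost without library 1 of CD43++ckit+ (0.0584). Cd34 was low throughout, with 0.983 ± 0.908 CPM in CD43++ckit+ cells, 0.394 ± 0.199 CPM in CD43+ckit- cells and 5.35 ± 2.75 CPM in CD43-ckit- cells. The related mucins Muc1 and Muc4 had 18 and 9 counts in all 9 libraries together, and Podxl2 had 4.

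Tgfa encodes transforming growth factor alpha, a ligand of the EGF receptor made as a membrane-anchored precursor. It stood at 26.3, 27.6 and 13.1 CPM in CD43++ckit+ libraries 1, 2 and 3, against 2.76, 2.38 and 3.17 CPM in the CD43+ckit- libraries and 1.10, 2.68 and 2.22 CPM in the CD43-ckit- libraries. The lowest CD43++ckit+ library was 4.14 times the highest of the others, and CD43+ckit- and CD43-ckit- overlapped. This was a log2 fold change of 3.01 ± 0.38 over CD43+ckit- (8.06-fold) and 3.47 ± 0.40 over CD43-ckit- (11.1-fold), and 3.28 and 3.75 without library 3 of CD43++ckit+.

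Most receptors of this ligand family were hardly counted. Egfr, the receptor of transforming growth factor alpha, had 13 reads in all 9 libraries together and at most 4 in any library. Erbb2 had 23 reads and Erbb4 none. At these depths a count of 0 allows up to 3 reads, or 0.067 to 0.236 CPM per library. Erbb3 was tested and averaged 16.98 ± 1.48 CPM in CD43++ckit+ cells, 15.8 ± 0.131 CPM in CD43+ckit- cells and 9.92 ± 1.36 CPM in CD43-ckit- cells (SD, n = 3 each), with a rise over CD43-ckit- (0.78 ± 0.15, edgeR adjusted p = 0.00168). Of the other ligands, Areg had no reads, Ereg had 1 and Hbegf had 22. Btc, which encodes betacellulin, averaged 12.9 ± 2.63 CPM in CD43++ckit+ cells, 9.36 ± 1.59 CPM in CD43+ckit- cells and 2.73 ± 0.959 CPM in CD43-ckit- cells. Btc rose in CD43++ckit+ over CD43-ckit- (2.23 ± 0.31, edgeR adjusted p = 0.00025), and its difference from CD43+ckit- was 0.46 ± 0.29 (edgeR adjusted p = 0.244).

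Release of the ligand depends on the protease ADAM17 and its iRhom partners, encoded by Rhbdf1 and Rhbdf2. Adam17 averaged 47.0 ± 7.55 CPM in CD43++ckit+ cells, 29.8 ± 3.35 CPM in CD43+ckit- cells and 27.5 ± 1.67 CPM in CD43-ckit- cells, and rose in CD43++ckit+ against both (0.66 ± 0.15 and 0.77 ± 0.15, edgeR adjusted p = 0.00834 and 0.00177). Rhbdf1 averaged 26.0 ± 2.82 CPM in CD43++ckit+ cells, 101.6 ± 18.2 CPM in CD43+ckit- cells and 716.8 ± 158.4 CPM in CD43-ckit- cells. Rhbdf2 averaged 26.4 ± 3.46, 66.0 ± 9.63 and 403.3 ± 54.5 CPM in the same order. Both iRhom genes fell in CD43++ckit+, by log2 fold changes of -1.96 ± 0.20 and -1.32 ± 0.16 against CD43+ckit- (edgeR adjusted p = 0.000351 and 0.000576). Against CD43-ckit- they were -4.78 ± 0.23 and -3.93 ± 0.18 (edgeR adjusted p = 1.46e-06 and 1.40e-06). Erythroid markers differed the same way, with a summed level of 1821 to 2627 CPM in CD43++ckit+, 15447 to 18419 CPM in the CD43+ckit- libraries and 31484 to 49877 CPM in the CD43-ckit- libraries over the 11 markers of the list with a row in the table. All 11 fell in both comparisons, beside 20.1% and 27.7% of all genes. The part of erythroid cells in the iRhom differences was not tested. Grb2, an adaptor of activated EGF receptors, rose over CD43+ckit- (0.59 ± 0.12, edgeR adjusted p = 0.00516). Of the 14 genes tested on this list of 23, 3 rose and 3 fell in CD43++ckit+ over CD43+ckit-. Those were 21.4% each, beside 19.7% and 20.1% of all genes. Over CD43-ckit-, 5 rose and 4 fell (35.7% and 28.6%), beside 39.7% and 27.7% of all genes.

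Papss2 encodes an enzyme that makes PAPS, the sulfate donor of sulfotransferases. It stood at 47.7, 46.3 and 18.1 CPM in CD43++ckit+ libraries 1, 2 and 3, against 1.48, 2.72 and 3.49 CPM in the CD43+ckit- libraries and 3.22, 7.26 and 5.17 CPM in the CD43-ckit- libraries. Every CD43++ckit+ library was above all others, and CD43+ckit- and CD43-ckit- overlapped. CD43++ckit+ differed by a log2 fold change of 3.86 ± 0.49 over CD43+ckit- (14.5-fold) and 2.83 ± 0.47 over CD43-ckit- (7.13-fold), and 4.19 and 3.18 without library 3. The other PAPS synthase gene, Papss1, averaged 28.8 ± 1.32 CPM in CD43++ckit+ cells, 20.6 ± 2.17 CPM in CD43+ckit- cells and 10.7 ± 3.14 CPM in CD43-ckit- cells. Papss1 rose over CD43-ckit- (1.42 ± 0.21, edgeR adjusted p = 0.000386), and over CD43+ckit- it stood at 0.49 ± 0.21 (edgeR adjusted p = 0.0943, and 0.0120 without library 1 of CD43-ckit-).

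Of 21 tested genes of sulfate activation and sulfation, 5 rose and 3 fell in CD43++ckit+ over CD43+ckit-. Those were 23.8% and 14.3%, beside 19.7% and 20.1% of all genes. Over CD43-ckit-, 8 rose and 1 fell (38.1% and 4.8%), beside 39.7% and 27.7% of all genes. Impad1 and Bpnt1, whose phosphatases clear the by-product left when PAPS has given up its sulfate, rose against both. Impad1 averaged 34.1 ± 4.75 CPM in CD43++ckit+ cells, 16.7 ± 1.87 CPM in CD43+ckit- cells and 14.3 ± 1.95 CPM in CD43-ckit- cells, with log2 fold changes of 1.03 ± 0.17 and 1.25 ± 0.17 (edgeR adjusted p = 0.00157 and 0.000211). For Bpnt1 they were 1.12 ± 0.22 and 1.42 ± 0.22 (edgeR adjusted p = 0.00365 and 0.000463). The sulfotransferase genes Hs2st1, of heparan sulfate, and Chst15, of chondroitin sulfate, also rose against both. Hs2st1 changed by 1.00 ± 0.18 and 1.50 ± 0.18 (edgeR adjusted p = 0.00264 and 0.000135) and Chst15 by 0.77 ± 0.18 and 1.44 ± 0.18 (edgeR adjusted p = 0.00838 and 0.000155). Hs6st1, of another sulfotransferase of heparan sulfate, fell against CD43+ckit- (-1.05 ± 0.21, edgeR adjusted p = 0.00395). The 3 tested sulfate transporter genes differed in direction. Slc26a2 rose over CD43+ckit- (0.70 ± 0.20, edgeR adjusted p = 0.0221) and over CD43-ckit- (0.76 ± 0.20, edgeR adjusted p = 0.00939). Leaving out CD43++ckit+ library 1 (0.0648) or 2 (0.0997), or CD43+ckit- library 1 (0.0719) or 2 (0.0599), ended the first of these calls. Slc26a1 averaged 3.85 ± 0.901 CPM in CD43++ckit+ cells, 25.2 ± 6.11 CPM in CD43+ckit- cells and 6.47 ± 2.17 CPM in CD43-ckit- cells, and fell against CD43+ckit- (-2.70 ± 0.31, edgeR adjusted p = 0.000463). Slc26a11 averaged 0.233 ± 0.114, 3.29 ± 0.546 and 8.87 ± 2.33 CPM in the same order and fell against both (-3.78 ± 0.41 and -5.21 ± 0.44, edgeR adjusted p = 0.000406 and 1.64e-05).

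Ass1 encodes argininosuccinate synthase, which joins citrulline to aspartate, and the product is split into arginine and fumarate by the enzyme of Asl. Ass1 stood at 87.6, 99.4 and 57.4 CPM in CD43++ckit+ libraries 1, 2 and 3, against 4.14, 9.96 and 8.05 CPM in the CD43+ckit- libraries and 8.72, 23.9 and 30.0 CPM in the CD43-ckit- libraries. Every CD43++ckit+ library was above all others, and CD43-ckit- library 1 lay among the CD43+ckit- libraries. The log2 fold change was 3.46 ± 0.50 over CD43+ckit- (11.0-fold) and 1.96 ± 0.47 over CD43-ckit- (3.90-fold), and 3.66 and 2.17 without library 3 of CD43++ckit+. Asl did not move with it. Asl averaged 20.2 ± 1.54 CPM in CD43++ckit+ cells, 43.0 ± 4.17 CPM in CD43+ckit- cells and 40.7 ± 4.99 CPM in CD43-ckit- cells, and fell by 1.09 and by 1.01 on the log2 scale (SE 0.14 for both, edgeR adjusted p = 0.000617 and 0.000235). With library totals the fall against CD43-ckit- was -0.08 and not called.

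Of 15 tested genes of the arginine and urea cycle list, 6 rose and 2 fell in CD43++ckit+ over CD43+ckit-. Those were 40% and 13.3%, beside 19.7% and 20.1% of all genes. Over CD43-ckit-, 9 rose and 4 fell (60% and 26.7%), beside 39.7% and 27.7% of all genes. Otc and Cps1, the mitochondrial enzymes of the liver's urea cycle, had 0 and 2 reads in all 9 libraries, and Arg1 had 37. Slc25a15, the mitochondrial carrier of ornithine and citrulline, averaged 29.5 ± 5.42 CPM in CD43++ckit+ cells, 9.24 ± 2.27 CPM in CD43+ckit- cells and 5.56 ± 1.50 CPM in CD43-ckit- cells, and rose against both (1.67 ± 0.26 and 2.40 ± 0.27, edgeR adjusted p = 0.00143 and 9.19e-05). Slc7a1, which carries arginine into cells, rose by 1.13 ± 0.21 and 1.85 ± 0.22 (edgeR adjusted p = 0.00323 and 0.000109). The synthase genes of spermine and spermidine, Sms and Srm, rose against both. Sms averaged 38.6 ± 7.86 CPM in CD43++ckit+ cells, 7.41 ± 2.22 CPM in CD43+ckit- cells and 10.2 ± 2.61 CPM in CD43-ckit- cells (2.38 ± 0.29 and 1.92 ± 0.29, edgeR adjusted p = 0.000566 and 0.000388), and Srm changed by 2.22 ± 0.40 and 2.38 ± 0.41 (edgeR adjusted p = 0.00279 and 0.000791). Odc1, of the first polyamine enzyme, stood at -0.41 ± 0.18 over CD43+ckit- (edgeR adjusted p = 0.107, and 0.0375 without library 1 of CD43-ckit-). Against CD43-ckit- Odc1 fell (-0.61 ± 0.19, edgeR adjusted p = 0.0164), a call lost without library 3 of CD43++ckit+ (0.0521), and with library totals its direction turned (0.32, edgeR adjusted p = 0.0291). Azin1, whose protein blocks the inhibitor of the first polyamine enzyme, fell against both. It averaged 74.8 ± 2.67 CPM in CD43++ckit+ cells, 148.1 ± 10.8 CPM in CD43+ckit- cells and 881.2 ± 268.7 CPM in CD43-ckit- cells (-0.98 ± 0.20 and -3.56 ± 0.22, edgeR adjusted p = 0.0043 and 2.93e-06).

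Dock10 encodes a guanine nucleotide exchange factor that loads CDC42 with GTP. It stood at 60.8, 69.6 and 37.6 CPM in CD43++ckit+ libraries 1, 2 and 3, against 4.30, 4.80 and 7.18 CPM in the CD43+ckit- libraries and 12.6, 22.3 and 19.9 CPM in the CD43-ckit- libraries. The 3 populations did not overlap, with CD43+ckit- lowest. Its log2 fold change was 3.37 ± 0.33 over CD43+ckit- (10.3-fold) and 1.62 ± 0.31 over CD43-ckit- (3.07-fold), and 3.58 and 1.85 without library 3 of CD43++ckit+. Of 18 tested genes of the DOCK family and its small GTPases, 4 rose and 2 fell in CD43++ckit+ over CD43+ckit-. Those were 22.2% and 11.1%, beside 19.7% and 20.1% of all genes. Over CD43-ckit-, 4 rose and 7 fell (22.2% and 38.9%), beside 39.7% and 27.7% of all genes. Dock9, of the same subfamily, averaged 103.4 ± 27.2 CPM in CD43++ckit+ cells, 37.1 ± 3.05 CPM in CD43+ckit- cells and 28.4 ± 0.548 CPM in CD43-ckit- cells, and rose against both (1.48 ± 0.19 and 1.86 ± 0.19, edgeR adjusted p = 0.000639 and 5.66e-05). Dock8 rose against both by 1.79 ± 0.25 and 1.14 ± 0.25 (edgeR adjusted p = 0.000856 and 0.0029). Dock11 rose over CD43-ckit- (1.54 ± 0.45, edgeR adjusted p = 0.0144), and its value over CD43+ckit- was 1.13 ± 0.45 (edgeR adjusted p = 0.0742, which was 0.0121 without library 3 of CD43++ckit+ and 0.0123 without library 1 of CD43+ckit-). Cdc42 and Rac1, which encode small GTPases, were lower than in CD43-ckit- cells with TMM, but with library totals both differences turned slightly positive and lost their call. Cdc42 averaged 265.9 ± 25.5 CPM in CD43++ckit+ cells, 233.2 ± 13.4 CPM in CD43+ckit- cells and 482.7 ± 71.3 CPM in CD43-ckit- cells (log2 fold change over CD43-ckit- -0.86 ± 0.14, edgeR adjusted p = 0.000603), and the change was 0.07 with library totals. Rac1 fell against CD43-ckit- by 0.90 on the log2 scale (SE 0.13, edgeR adjusted p = 0.000365), which became 0.02 with library totals. Over CD43+ckit- Rac1 rose (0.45 ± 0.13, edgeR adjusted p = 0.0249), and that call ended on leaving out CD43++ckit+ library 1 (0.105) or 2 (0.0950), or CD43+ckit- library 1 (0.0860) or 3 (0.0721). Arhgdib, which encodes an inhibitor that holds small GTPases in the cytosol, fell against CD43-ckit- (-1.78 ± 0.14, edgeR adjusted p = 1.12e-05). Elmo3, of a family of DOCK partners, fell against both (-1.81 ± 0.31 and -1.37 ± 0.31, edgeR adjusted p = 0.00199 and 0.00335), the second call not being made with library totals (-0.40). Elmo2, of the same family, rose over CD43-ckit- (0.99 ± 0.20, edgeR adjusted p = 0.00213). Over CD43+ckit- Elmo2 stood at 0.57 ± 0.20 (edgeR adjusted p = 0.0494), a call lost under 3 other settings and without any one of 6 libraries (0.0606 to 0.126).

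**Figure D2:**
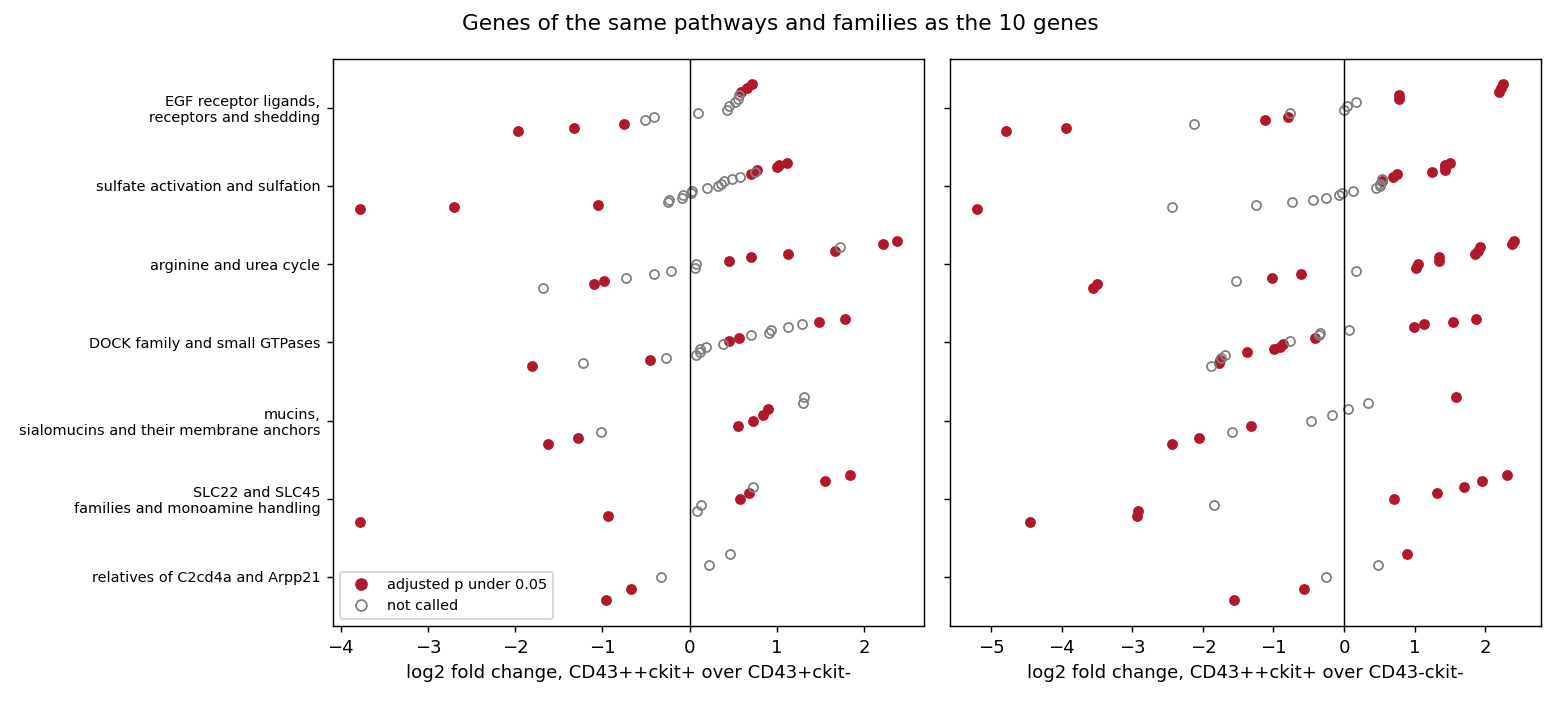
Log2 fold change of the tested genes of each list in CD43++ckit+ over CD43+ckit- (left) and over CD43-ckit- (right), 91 genes in all; filled points passed an adjusted p of 0.05 (edgeR). Of the 91, 26 rose and 16 fell on the left, and 33 rose and 24 fell on the right.

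Slc22a3 encodes an organic cation transporter that moves histamine and other monoamines. It stood at 262.0, 248.5 and 160.0 CPM in CD43++ckit+ libraries 1, 2 and 3, against 14.4, 30.4 and 25.4 CPM in the CD43+ckit- libraries and 16.6, 35.7 and 34.9 CPM in the CD43-ckit- libraries. The lowest CD43++ckit+ library was 4.48 times the highest of the others, the widest gap among the 10 genes, and CD43+ckit- and CD43-ckit- overlapped. This was a log2 fold change of 3.26 ± 0.38 over CD43+ckit- (9.55-fold) and 2.94 ± 0.38 over CD43-ckit- (7.68-fold), and 3.45 and 3.15 without library 3 of CD43++ckit+. Slc45a3, whose human product is known as prostein in the prostate, stood at 131.3, 114.7 and 65.2 CPM in CD43++ckit+, against 6.72, 12.4 and 11.1 CPM in the CD43+ckit- libraries and 11.4, 16.9 and 16.1 CPM in the CD43-ckit- libraries. Every CD43++ckit+ library was above all others and the other populations overlapped. CD43++ckit+ differed by a log2 fold change of 3.36 ± 0.33 over CD43+ckit- (10.3-fold) and 2.81 ± 0.32 over CD43-ckit- (7.01-fold), and 3.61 and 3.07 without library 3.

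Of 9 tested genes of the SLC22 and SLC45 families and of monoamine handling, 4 rose and 2 fell in CD43++ckit+ over CD43+ckit-. Those were 44.4% and 22.2%, beside 19.7% and 20.1% of all genes. Over CD43-ckit-, 5 rose and 3 fell (55.6% and 33.3%), beside 39.7% and 27.7% of all genes. Slc22a2, which encodes another organic cation transporter, had 1 read in all 9 libraries together. Hdc, which encodes the enzyme that makes histamine, averaged 545.7 ± 136.4 CPM in CD43++ckit+ cells, 152.2 ± 34.8 CPM in CD43+ckit- cells and 167.7 ± 57.1 CPM in CD43-ckit- cells, and rose against both (1.84 ± 0.31 and 1.70 ± 0.31, edgeR adjusted p = 0.00186 and 0.00102). Slc18a2, the carrier that loads monoamines into vesicles, rose over CD43-ckit- (2.30 ± 0.57, edgeR adjusted p = 0.00577). Slc22a4 and Slc22a23 fell. Slc22a4, a carrier of ergothioneine, averaged 1.51 ± 1.68 CPM in CD43++ckit+ cells, 21.1 ± 2.98 CPM in CD43+ckit- cells and 33.3 ± 8.33 CPM in CD43-ckit- cells (-3.78 ± 0.70 and -4.44 ± 0.72, edgeR adjusted p = 0.00335 and 0.000685). Without library 3 of CD43++ckit+ these were -5.26 and -5.91. Slc22a23 averaged 121.9 ± 8.12, 232.9 ± 32.3 and 934.3 ± 218.4 CPM in the same order (-0.93 ± 0.18 and -2.94 ± 0.20, edgeR adjusted p = 0.00397 and 4.73e-06). Slc22a5, a carnitine carrier, rose over CD43-ckit- (1.31 ± 0.18, edgeR adjusted p = 0.000254). Slc45a4 rose against both by 0.58 ± 0.14 and 0.70 ± 0.14 (edgeR adjusted p = 0.0103 and 0.00192).

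Because histamine handling is a trait of mast cells and basophils, their markers are given beside these values. Hdc is itself on this marker list, so the sums and counts below partly repeat its values. The summed level of 16 mast cell, basophil and eosinophil markers was 1552 to 2301 CPM in CD43++ckit+, 889.0 to 957.2 CPM in the CD43+ckit- libraries and 1938 to 2001 CPM in the CD43-ckit- libraries. The genes that made up these sums differed between populations. In CD43++ckit+ libraries 1, 2 and 3 Hdc stood at 670.1, 567.1 and 399.8 CPM and Il1rl1, another of the markers, at 782.4, 707.9 and 389.9 CPM. Il1rl1 stood at 271.4 to 340.3 CPM in the CD43+ckit- libraries and at 145.8 to 170.0 CPM in the CD43-ckit- libraries. Gata2, a transcription factor also found in progenitors, stood at 182.6 to 325.6 CPM in CD43++ckit+ and at 789.6 to 1262 CPM in the CD43-ckit- libraries. Prg2, of an eosinophil granule protein, stood at 10.2, 3.50 and 281.2 CPM in CD43++ckit+ libraries 1, 2 and 3 and at 266.6 to 551.7 CPM in the CD43-ckit- libraries. Of 14 tested, 7 rose and none fell in CD43++ckit+ over CD43+ckit-, beside 19.7% and 20.1% of all genes. Over CD43-ckit- 5 rose and 2 fell, beside 39.7% and 27.7% of all genes. The median log2 fold change of the 14 was 0.96 over CD43+ckit- and -1.01 over CD43-ckit-. Ms4a2, a chain of the high-affinity IgE receptor, stood at 392.3, 351.3 and 139.8 CPM in CD43++ckit+, against 24.9, 22.9 and 27.1 CPM in the CD43+ckit- libraries and 21.5, 44.2 and 40.7 CPM in the CD43-ckit- libraries. Among granule protease genes, Cpa3 stood at 1.18 to 2.18 CPM in CD43++ckit+, 0.034 to 0.224 CPM in the CD43+ckit- libraries and 1.10 to 3.27 CPM in the CD43-ckit- libraries. Cma1 stood at 3.38, 4.35 and 0.670 CPM in CD43++ckit+ libraries 1, 2 and 3, against at most 0.504 CPM in the CD43+ckit- and 0.933 CPM in the CD43-ckit- libraries. Prss34 and Mcpt8 were below 1 CPM in CD43++ckit+ libraries 1 and 2 and at 13.5 and 3.68 CPM in library 3. Mrgprb2, a receptor of mature mast cells, was at 0 in all 3 CD43++ckit+ libraries. It reached at most 0.131 CPM in the libraries of the other populations, so it does not tell the populations apart. The part of mast cells or basophils in the values of the 10 genes was not tested.

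C2cd4a encodes a small protein with a C2 domain, studied in endothelial and pancreatic islet cells. It stood at 213.6, 170.4 and 31.9 CPM in CD43++ckit+ libraries 1, 2 and 3, against 10.3, 15.5 and 15.3 CPM in the CD43+ckit- libraries and 4.48, 6.87 and 7.11 CPM in the CD43-ckit- libraries. The 3 populations did not overlap, with CD43-ckit- lowest. The log2 fold change was 3.34 ± 0.62 over CD43+ckit- (10.1-fold) and 4.49 ± 0.66 over CD43-ckit- (22.5-fold), and 3.81 and 4.97 without library 3 of CD43++ckit+. Its paralogs were next to absent from the counts: C2cd4b had 4 reads, all in a single library, C2cd4c had 1 and C2cd4d had 0.

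Arpp21 encodes an RNA-binding protein with an R3H domain that is abundant in neurons of the striatum. It stood at 44.9, 33.7 and 12.6 CPM in CD43++ckit+ libraries 1, 2 and 3, against 3.13, 3.59 and 5.54 CPM in the CD43+ckit- libraries and 2.36, 2.68 and 4.52 CPM in the CD43-ckit- libraries. Every CD43++ckit+ library was above all others and the other populations overlapped. Its log2 fold change was 2.89 ± 0.47 over CD43+ckit- (7.42-fold) and 3.25 ± 0.49 over CD43-ckit- (9.51-fold), and 3.26 and 3.63 without library 3. Of 5 tested relatives of C2cd4a and Arpp21, 2 fell and none rose in CD43++ckit+ over CD43+ckit-. Those were 40% and 0%, beside 20.1% and 19.7% of all genes. Over CD43-ckit-, 1 rose and 2 fell (20% and 40%), beside 39.7% and 27.7% of all genes. R3hdm4, an R3H gene, fell against both (-0.96 ± 0.14 and -1.56 ± 0.14, edgeR adjusted p = 0.000932 and 2.34e-05). Arpp19 rose over CD43-ckit- (0.89 ± 0.17, edgeR adjusted p = 0.00139), while Ensa, which encodes a related phosphatase inhibitor, fell by 0.57 (SE 0.15, edgeR adjusted p = 0.0092). With library totals the direction of Ensa turned, with a called rise of 0.37 (edgeR adjusted p = 0.00898).

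**Figure D3:**
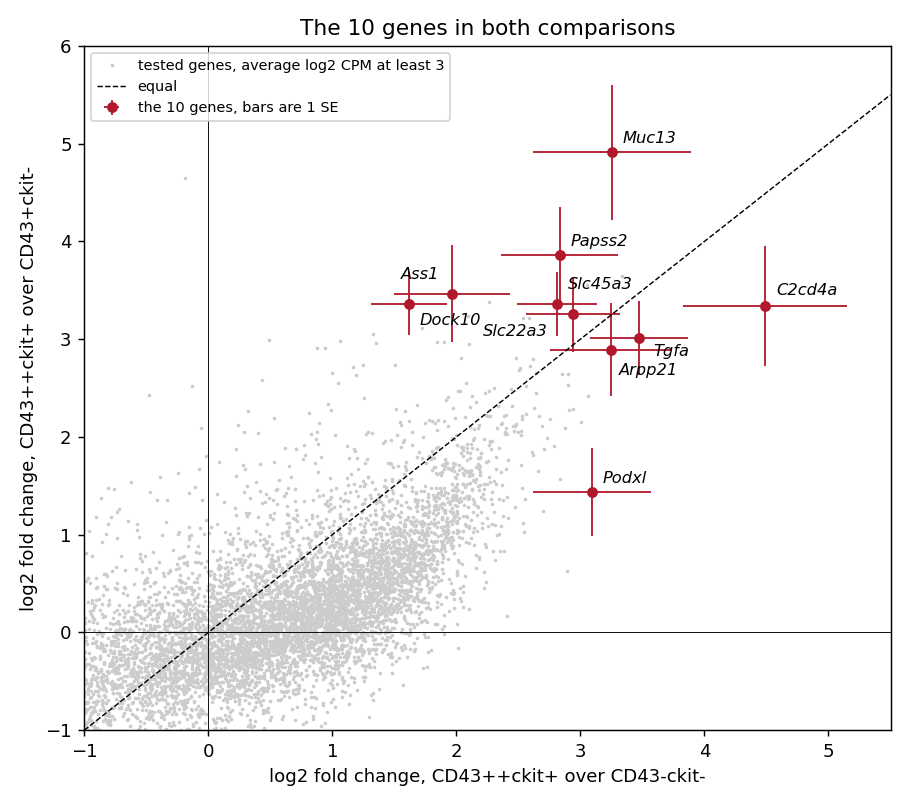
Log2 fold change of CD43++ckit+ over CD43-ckit- (horizontal axis) and over CD43+ckit- (vertical axis) for the 10 genes, with bars of 1 SE, and for other tested genes whose average log2 CPM reached 3; both axes are cut at -1 and both share the CD43++ckit+ libraries. Dock10 and Ass1 lie to the left (1.62 and 1.96 over CD43-ckit-) and Podxl lies lowest (1.44 over CD43+ckit-).

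The 10 genes differed in which of the other populations they were closer to, and the comparison of CD43+ckit- with CD43-ckit- is the only pairwise comparison that did not rank them. Its libraries entered both comparisons that did, and genes ranked by the increase over one population tend to be low in that population, so its direction is not independent of the choice. At an adjusted p under 0.05 (edgeR), 1 of the 10 genes was higher in CD43+ckit- and 2 were lower, beside 31.0% and 20.9% of all genes, and 7 were not called. With library totals 3 were higher and 1 lower, and the split over all genes was 6865 higher and 1191 lower, against 3893 and 2630 with TMM and 2798 and 3312 with DESeq2's size factors. The libraries of both populations did not overlap for 4 of the 10 genes, higher for C2cd4a and Podxl (beside 36.1% of all genes) and lower for Muc13 and Dock10 (beside 28.2%). The median log2 fold change of the 10 was -0.43 (0.13 for all genes), and 0.18 with library totals, which moved the median of all genes to 0.78.

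Podxl averaged 132.7 ± 39.4 CPM in CD43+ckit- cells and 42.1 ± 3.72 CPM in CD43-ckit- cells (SD, n = 3 each), a log2 fold change of 1.66 ± 0.45 (edgeR adjusted p = 0.0149, and 0.0521 without library 1 of CD43-ckit-). Dock10 averaged 5.43 ± 1.54 CPM in CD43+ckit- cells and 18.2 ± 5.05 CPM in CD43-ckit- cells, with -1.75 ± 0.31 (edgeR adjusted p = 0.00189). The Dock10 call was made under every alternative run, with a largest adjusted p of 0.0194. Ass1 averaged 7.38 ± 2.97 CPM in CD43+ckit- cells and 20.9 ± 11.0 CPM in CD43-ckit- cells, with -1.50 ± 0.47 (edgeR adjusted p = 0.0252). The Ass1 call was lost with library totals (0.147) and with no filter on low counts (0.0556). Leaving out a single library also ended it for CD43+ckit- library 1 (0.0774) or 3 (0.063) and for CD43-ckit- library 2 (0.0673) or 3 (0.0871).

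Muc13 averaged 1.17 ± 0.411 CPM in CD43+ckit- cells and 3.71 ± 1.17 CPM in CD43-ckit- cells, a difference of -1.66 ± 0.64 that was not called (edgeR adjusted p = 0.0547). In a fit of these 6 libraries alone, without a block, Muc13 (0.0103) and C2cd4a (0.0133) were called, giving 2 genes higher and 3 lower of the 10. Same-numbered libraries of these populations deviated together, but so did libraries 2 and 3 across numbers (r of 0.34 and 0.35), so pairing by number is not established. With replicate numbers as blocks in the fit of these 6 libraries, Papss2 (0.000314, against 0.0605 unblocked) and Slc45a3 (0.0054, against 0.110 unblocked) were called too, giving 2 higher and 5 lower. With the block over all 9 libraries the counts stayed at 1 and 2. In the fit of all 9 libraries without a block the values were 1.15 ± 0.60 for C2cd4a (edgeR adjusted p = 0.134), -1.03 ± 0.46 for Papss2 (0.0875) and -0.55 ± 0.31 for Slc45a3 (0.153). Without library 3 of CD43++ckit+, Muc13 (0.00285), C2cd4a (0.00283) and Papss2 (0.0334) passed the threshold with no block. Tgfa (0.46 ± 0.38, edgeR adjusted p = 0.312) was called only with library totals (1.07, 0.0459). Slc22a3 (-0.31 ± 0.36, 0.465) and Arpp21 (0.36 ± 0.47, 0.526) were called under no alternative run.

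Within CD43++ckit+, library 3 was the lowest of the 3 for all 10 genes, as it was for 56.8% of all genes tested and for 85.7% of the 2804 genes with every CD43++ckit+ library above every other. Relative to the mean log2 CPM of libraries 1 and 2 it was 5.97-fold lower for C2cd4a, 5.70-fold for Muc13, 3.74-fold for Podxl, 3.07-fold for Arpp21, 2.59-fold for Papss2 and 2.05-fold for Tgfa. The other 4 genes were 1.59-fold to 1.88-fold lower. Library 3 was thus at least 2-fold lower for 6 of the 10 genes, beside 3.58% of all genes, and the median difference was -1.21 on the log2 scale for the 10 and -0.12 for all genes. The 10 were chosen as high in CD43++ckit+, and neither value was taken over other genes high in that population. The 2-fold count is therefore not read as particular to the 10. Kit was 175.5 and 171.1 CPM in libraries 1 and 2 and 146.0 CPM in library 3. Deviations from the population means were positively correlated for all 45 pairs of the 10 genes (Pearson r 0.52 to 0.99, median 0.79, over 9 libraries), a description in which libraries and their scaling are shared by all genes. Library 3 was also lowest for most genes high in CD43++ckit+, the trait by which the 10 were chosen. Pairs of other genes were not computed, so the 45 of 45 is not read as particular to the 10.

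**Figure D4:**
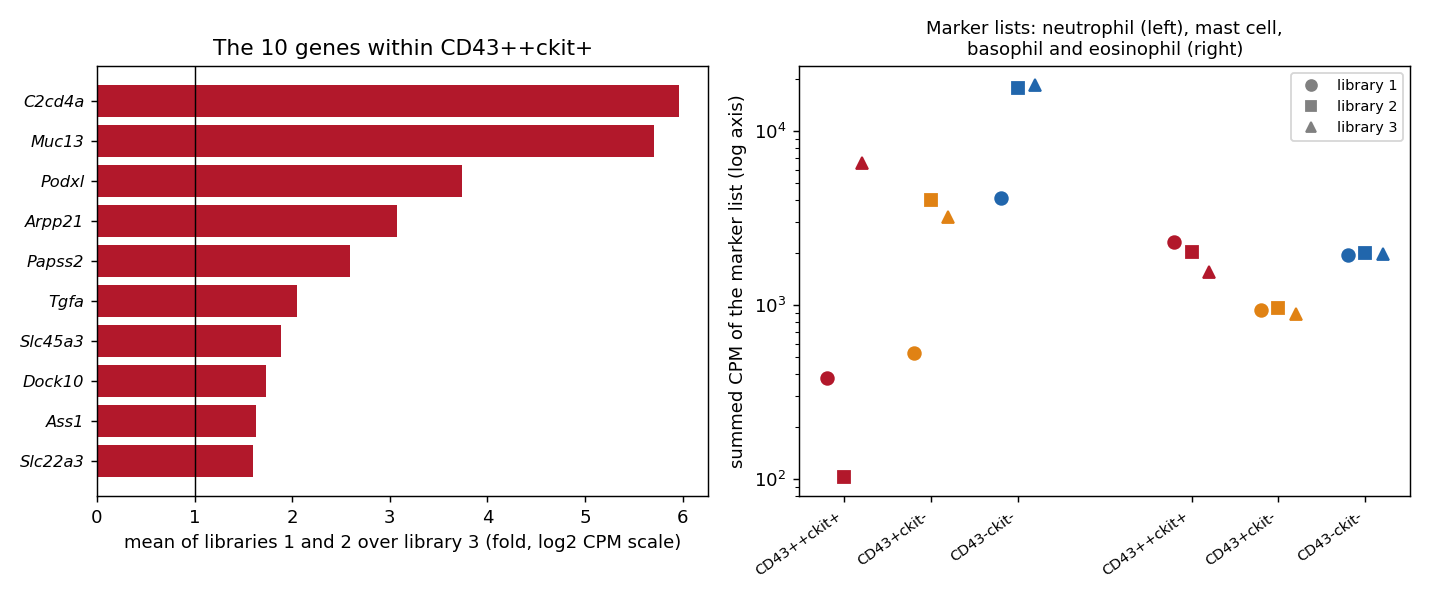
Left, fold by which CD43++ckit+ libraries 1 and 2 exceeded library 3 for each of the 10 genes, with the mean of libraries 1 and 2 taken on log2 CPM. Right, summed TMM-scaled CPM on a log axis of the neutrophil and the mast cell, basophil and eosinophil marker lists in each library. C2cd4a (5.97-fold) and Muc13 (5.70-fold) differed most between CD43++ckit+ libraries, and neutrophil markers reached 6507 CPM in library 3 against 380.1 and 102.7 CPM in libraries 1 and 2.

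The mean standardised log2 CPM of the 10 genes over 9 libraries was compared with that of the other tested genes whose average log2 CPM reached 3, predicted genes left out. The closest were Zfp706 and Mtap (Pearson r 0.995 each), Heg1 (0.993), Chchd4 and Eif4a1 (0.992 each), Gfpt1 and Cdk6 (0.991 each) and Ms4a2 (0.990). Of 8333 genes compared, 599 had an r above 0.9, and the 10 genes themselves ranged from 0.79 for Podxl to 0.99 for Slc45a3. The 10 make up the mean they were compared with and were chosen for a like pattern. Their r is therefore high by construction and not comparable with that of other genes. Mtap, which encodes an enzyme that recycles the by-product of polyamine synthesis, averaged 68.7 ± 22.1 CPM in CD43++ckit+ cells, 10.9 ± 3.07 CPM in CD43+ckit- cells and 11.0 ± 3.14 CPM in CD43-ckit- cells. Cdk6, a kinase of the G1 phase, averaged 60.4 ± 15.5, 10.9 ± 3.18 and 12.6 ± 3.31 CPM in the same order.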

How the data were processed

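RNA was sequenced from 9 libraries of sorted bone marrow cells, 3 of each population, from total RNA by a TruSeq protocol, as the labels' protocols state. The authors deposited a table of whole-number read counts per gene symbol. Per the submitters' processing notes, the tools were edgeR, HTSeq, RSEM, TopHat2 2.0.4 and CASAVA 1.8, with no roles given. Those notes list a human build although the symbols are murine, so build, annotation and use of strand are not given in the sources used, and counts of overlapping or near-identical genes are uncertain. Of the rows, 27 had repeated or date-like symbols and stayed in the fit unnamed.

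The filterByExpr function (count of 10, total of 15) left 12573 of 24391 rows. A fit of 3 population means to all 9 libraries was made with edgeR 4.0.16 in R 4.3.3 (TMM, robust quasi-likelihood), and p-values were adjusted by Benjamini-Hochberg over all tested genes. The SE of a log2 fold change was taken from the F statistic, as the change over the root of F. The prior count was 2. Alternatives used DESeq2 1.42.0 (size factors, Wald test), library totals, no filter, a strict filter (CPM of at least 1 in every library of a population), replicate blocks, fits of 2 populations and each library left out. The fit was tested on simulated data with changes set between CD43+ckit- and CD43-ckit-, at the trend of spread fitted over genes. It called 33% of the 2-fold changes and 75.5% of the 4-fold changes, and 0.93% of its calls were false.

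The 10 genes and all lists were chosen with earlier results of these data known. From each list the 3 genes of smallest adjusted p in each comparison (average log2 CPM of at least 1) were named by rule. Other listed genes, and further comparisons of those genes, were named for their role after their values were seen, among them Adam17, Erbb3, Papss1, Bpnt1, Srm, Slc7a1, Dock11, Elmo2, Odc1, Slc26a2, Hs6st1, Slc18a2, Slc45a4 and the genes given by read totals. Within populations, counts of library pairs differed by 15.2 to 117.5 in chi-square per degree of freedom, so none was treated as a duplicate. Replicate numbers are shared in the titles. For CD43+ckit- with CD43-ckit- the deviations of same-numbered libraries from their means had r of 0.53, 0.37 and 0.30, each above the 0.1 set for pairing. Libraries of different number did so too, with r of 0.34 for CD43+ckit- 2 with CD43-ckit- 3 and 0.35 for 3 with 2. These values therefore do not show that the numbers 2 and 3 mark pairs, and the blocked fit is given as an alternative only. For CD43++ckit+ they had r of 0.45, -0.62 and 0.38 with CD43+ckit- and of 0.26, -0.32 and 0.25 with CD43-ckit-, so those were not taken as paired. Counting limits cover counting error only.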

Additional observations from a re-analysis of the deposited data

How the results depend on the processing

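In CD43++ckit+ over CD43+ckit- and over CD43-ckit-, all 10 genes kept a positive log2 fold change under every alternative run. Because the genes were chosen by these comparisons in the same libraries, nothing is read from that. Scaling by library totals moved most values. The median of the 10 over CD43-ckit- became 3.88 (3.02 with TMM), and between CD43+ckit- and CD43-ckit- it became 0.18 (-0.43). There 3 of the 10 genes were called higher and 1 lower, and Slc22a3 (0.29) and Slc45a3 (0.074) turned positive. Listed genes called higher and lower became 54 and 10 over CD43-ckit-, where Ensa (0.37), Odc1 (0.32), Cdc42 (0.066) and Rac1 (0.017) turned positive. Between CD43+ckit- and CD43-ckit- they became 43 and 10, and R3hdm4 turned to 0.036. With DESeq2's size factors 12 listed genes were higher between these populations. For the 10 genes in that comparison, 1 was lower without the low-count filter, 5 were lower by DESeq2's Wald test, and 2 were higher and 3 lower in a fit of these populations alone without a block. With the replicate block in that fit 2 of the 10 genes were higher and 5 lower, 36 listed genes were lower (32 unblocked), and over all genes 3949 were lower (3236 unblocked, and 2630 in the fit of all 9 libraries). The block in that fit changed no call among the 10 genes beyond Papss2 and Slc45a3. In the comparisons with CD43++ckit+, whose numbers were not taken as paired, the block gave 23 listed genes higher and 14 lower over CD43+ckit- and 30 and 23 over CD43-ckit-. Leaving out each library in turn gave 0 to 2 of the 10 genes higher and 1 to 4 lower. For listed genes it gave 12 to 24 higher and 16 to 35 lower between these populations, and 16 to 28 higher in CD43++ckit+ over CD43+ckit-. In that last comparison 1607 of all genes were higher without library 1 of CD43++ckit+ (2472 with it). The cause of these changes was not tested. For the listed genes named, 1648 pairs of value and alternative stayed called or stayed not called. Another 60 lost a call, 21 gained one and 5 turned direction. With 3 libraries a population and no animal named, a missed call shows no equality, and CD43+ckit- levels of Muc13 rest on 21 to 46 reads per library.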
